A study of Mus musculus with 6 samples.

Results

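DNA methylation at Hif3a and 8 other genes of the hypoxia pathway was examined in germ cells of male mice. The genes are those of the hypoxia-inducible factor subunits (Hif1a, Epas1, Hif3a, Arnt and Arnt2), the oxygen-sensing prolyl hydroxylases (Egln1, Egln2 and Egln3) and Vhl. They were chosen by name, with a minimum of 3 measured cytosines in the gene or within 1 kb of either end. All 9 passed, of 28737 genes with 3 or more such cytosines, and Arnt came closest to the minimum with 10. They hold 1427 of the 2207564 cytosines used. Read coverage chose the cytosines and the list was drawn up with results of these data known, so the differences between groups are given here as a description.

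The germ cell DNA was profiled by reduced representation bisulfite sequencing (RRBS), in which a restriction digest enriches CpG-rich fragments and bisulfite turns unmethylated cytosines, but not methylated ones, into bases read as T. The methylation level of a region is the mean, over its cytosines, of the percent of reads that show C. Reads given for a region are summed over its cytosines, so a read counts once at each cytosine it covers. There were 3 libraries from mice under chronic social defeat stress (CSDS), in which a mouse is repeatedly confronted by a dominant aggressor, and 3 from Control mice. Strain, age, the defeat schedule and how the germ cells were purified are not given in the sources used here, and no label states whether replicates come from different animals, so errors and p-values measure only the spread between these libraries, which may be technical.

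In well-oxygenated cells the EGLN enzymes hydroxylate the HIF alpha subunits on proline, and the VHL protein, the substrate-binding part of a ubiquitin ligase, then marks them for degradation. When oxygen is short the alpha subunits last, pair with ARNT or ARNT2 and bind DNA at a short core motif in genes of glycolysis, blood vessel growth and red cell production. HIF3A has splice forms that act as inhibitors of the other alpha subunits, and Egln3, like Hif3a, is a known target of the pathway. The core motif contains a CpG, and methylation of that CpG is known to hinder HIF binding in other cells.

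Promoter sequences are shown for Hif3a, whose own promoter was not measured, and for Egln2 and Egln1, where cytosines of the core motif were measured. Each is the 250 bases before the start of transcription from RefSeq (GRCm38.p6), written 5′ to 3′ along the gene. Capitals mark matches to ACGTG or GCGTG on either strand (CACGT or CACGC on the strand shown). The Hif3a promoter lies at chr7:17062428-17062677 (minus strand), that of Egln2 at chr7:27166803-27167052 (minus strand) and that of Egln1 at chr8:124949255-124949504 (minus strand).
Hif3a: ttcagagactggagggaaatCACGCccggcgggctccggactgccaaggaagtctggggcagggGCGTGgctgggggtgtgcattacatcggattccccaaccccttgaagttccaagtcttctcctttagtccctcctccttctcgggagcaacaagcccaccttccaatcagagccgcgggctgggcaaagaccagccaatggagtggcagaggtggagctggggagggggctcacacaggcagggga
Egln2: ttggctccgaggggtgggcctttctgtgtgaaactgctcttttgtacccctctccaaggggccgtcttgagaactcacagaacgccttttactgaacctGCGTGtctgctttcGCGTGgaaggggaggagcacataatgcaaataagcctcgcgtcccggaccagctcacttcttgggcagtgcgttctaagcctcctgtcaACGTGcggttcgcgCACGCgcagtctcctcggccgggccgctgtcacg
Egln1: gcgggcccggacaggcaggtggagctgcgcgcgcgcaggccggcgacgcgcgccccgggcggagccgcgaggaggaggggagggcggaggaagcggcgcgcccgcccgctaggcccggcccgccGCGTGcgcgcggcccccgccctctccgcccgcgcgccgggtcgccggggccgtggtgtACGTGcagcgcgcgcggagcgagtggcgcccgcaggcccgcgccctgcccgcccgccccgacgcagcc
The promoter table matched 8 of the 9 genes by gene ID, with 9 promoters since Egln2 has a second start, and Epas1 is the gene without an entry. Of these 9 promoters 7 held a match, as did 12679 of all 32851 promoters in the table (38.6%). In the Hif1a promoter a pair of the 3 matches are the same letters, CACGTG, read on both strands, which is also the E-box bound by other bHLH factors. The Egln1 promoter shown is the richest in CpGs of the 9, with 51, against 9 in that of Hif3a. RRBS listed no cytosine in all 6 libraries within the Hif3a or Hif1a promoter, but 89 in that of Egln1 and 31 in that of Egln2, each counted with the first bases of the transcript.

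The libraries differed in the share of C they left at DNA that is usually unmethylated, and that moved with the group. At 27 mitochondrial CpG cytosines the median share of C was 8.50%, 4.41% and 4.53% in the CSDS libraries, against 8.90%, 8.84% and 10.04% in the Control libraries. At the ends of 21 broadly expressed genes it was 12.9%, 7.25% and 8.28% in the CSDS libraries, against 13.6%, 12.8% and 13.8% in the Control libraries. CSDS replicate 1 was thus close to the Control libraries, while CSDS replicates 2 and 3 stood apart with less C. Mean levels over all cytosines were 42.6%, 39.5% and 39.7% in the CSDS libraries, against 43.2%, 43.4% and 43.1% in the Control libraries. Differences are therefore given as deposited and after correction for the mitochondrial share of each library, and for CSDS replicate 1 alone where a result turns on it. Over all genes the median difference, CSDS minus Control, was -3.04 percentage points at gene ends and -1.54 points in gene interiors as deposited, and -0.36 and -0.50 points after the correction. Of 9 measured germ cell genes 7 were under 30% methylated at their gene end in every library, as were all 6 measured maternally methylated imprinted genes. Of the genes methylated on the paternal copy, which male germ cells are known to methylate, the gene ends of H19, Meg3 and Rasgrf1 averaged 32.0%, 25.9% and 8.28% in CSDS libraries, and 33.9%, 28.5% and 13.1% in Control libraries, though these ends need not hold the imprinted region. Ends of 6 genes of other testis cells ranged from 9.47% to 95.6% in CSDS libraries and from 11.6% to 96.0% in Control libraries, so these data do not measure how many other cells were present. In bulk DNA, a changed mix of cells and a changed level within cells cannot be told apart.

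Hif3a (chromosome 7, 17030993 to 17062427, minus strand) encodes the alpha subunit with inhibitory splice forms, and its measured cytosines lie inside the gene. Of its 104 cytosines 102 were in the interior, that is over 1 kb from both ends, and 2 at the end farthest from its start, below the minimum of 3. The interior was methylated to 21.3%, 19.7% and 19.5% in the CSDS libraries, against 24.4%, 24.9% and 24.6% in the Control libraries. All CSDS libraries were below all Control libraries, and the means were 20.1 ± 0.990% in CSDS and 24.7 ± 0.260% in Control libraries (SD, n = 3 each), a difference of -4.52 points. Such separation with CSDS lower was found in 21.3% of all gene interiors. After the mitochondrial correction the difference was -1.78 points and the groups were still apart, which held for 9.78% of interiors, while with the share at broadly expressed genes it was -1.24 points and the groups overlapped. Of 19036 interiors, 1618 (8.50%) had a difference as low as that of Hif3a as deposited and 4163 (21.9%) had one after the mitochondrial correction. This interior includes the tile described next, which holds 53 of its 102 cytosines, so the interior and the tile are not independent results.

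The largest difference in Hif3a was in a 500-base tile inside the gene. It lies at chromosome 7, 17056001 to 17056500, between 5927 and 6426 bases into the gene, where no other annotated gene overlaps, and it holds 53 of the gene's cytosines. Its level was 7.87%, 5.97% and 5.66% in the CSDS libraries, against 13.03%, 14.1% and 15.4% in the Control libraries. The groups did not overlap, and CSDS replicate 1 was the highest of the CSDS libraries. The means were 6.50 ± 1.197% in CSDS and 14.2 ± 1.18% in Control libraries (SD, n = 3 each), and the difference was -7.68 points. With reads summed over the cytosines of the tile, to 2731 to 3876 counts a library, the CSDS libraries gave 7.56% (95% Wilson interval 6.69 to 8.53%), 6.32% (5.60 to 7.13%) and 5.76% (4.97 to 6.68%). The Control libraries gave 13.9% (12.8 to 15.1%), 13.5% (12.2 to 14.8%) and 14.1% (12.8 to 15.5%), so no interval of a CSDS library met one of a Control library. These intervals cover counting error only and are too narrow even for that. A read is counted at each cytosine it covers, and reads without molecular identifiers are not independent molecules. That the intervals did not meet is therefore a description only.

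After the mitochondrial correction the Hif3a tile stood at -0.68%, 1.63% and 1.19% in the CSDS libraries, against 4.53%, 5.80% and 5.94% in the Control libraries, a difference of -4.71 points with the groups still apart. With the share at broadly expressed genes the difference was -4.22 points, and the groups were apart as well. For CSDS replicate 1 on its own the difference to Control was -6.31 points as deposited and -6.11 points after the mitochondrial correction. These values rest on a single library, in the tile of largest difference in the gene. In that library the tile, at 7.87%, was below the mitochondrial share of 8.50%. Whether the share of C accounts for the difference was not tested. Of its 53 cytosines 49 were lower on average in CSDS, and 15 had all CSDS libraries below all Control libraries, as 10.5% of all single cytosines had. None had all CSDS libraries above, as 1.73% of all single cytosines had. The 27 cytosines of the plus strand averaged 6.48 ± 0.295% in CSDS and 13.9 ± 2.59% in Control libraries. The 26 of the minus strand averaged 6.52 ± 2.62% in CSDS and 14.5 ± 0.532% in Control libraries (SD, n = 3 each), and the differences were -7.39 points on the plus and -7.98 points on the minus strand. With reads summed these differences were -8.08 and -5.85 points. Split into 3 stretches by position, the differences were -7.27, -8.82 and -6.90 points as deposited, with the groups apart in each. After the mitochondrial correction they were -4.25, -6.09 and -3.76 points, and only the middle stretch kept its groups apart.

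Across the whole table of 162881 tiles tested, the moderated quasi-binomial test (limma) called none at a Benjamini-Hochberg adjusted p under 0.05 with a difference of 10 points (0% called), and the Hif3a tile had an adjusted p of 0.174. Of all tiles 25459 had an unadjusted p under 0.05, and limma on logit values also called 0. As many as 6785 tiles (4.17%) had a difference as low as that of the Hif3a tile as deposited, and 13752 (8.44%) had one after the mitochondrial correction. The other 6 tiles of Hif3a had overlapping groups, with differences from -4.25 to +3.16 points as deposited. After the mitochondrial correction they overlapped too, with differences from -1.44 to +5.44 points. Of all 7 tiles of the gene, 2 were then lower in CSDS, and the median was +1.08 points. The neighbouring tile toward the start, at 17056501, averaged 20.4 ± 3.18% in CSDS and 24.6 ± 1.23% in Control libraries. The 3 tiles in the far part of the gene, between 17927 and 23926 bases in, were near the middle of the scale, at 51.1% to 54.6% in CSDS and 48.0% to 52.7% in Control libraries.

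**Figure D1:**
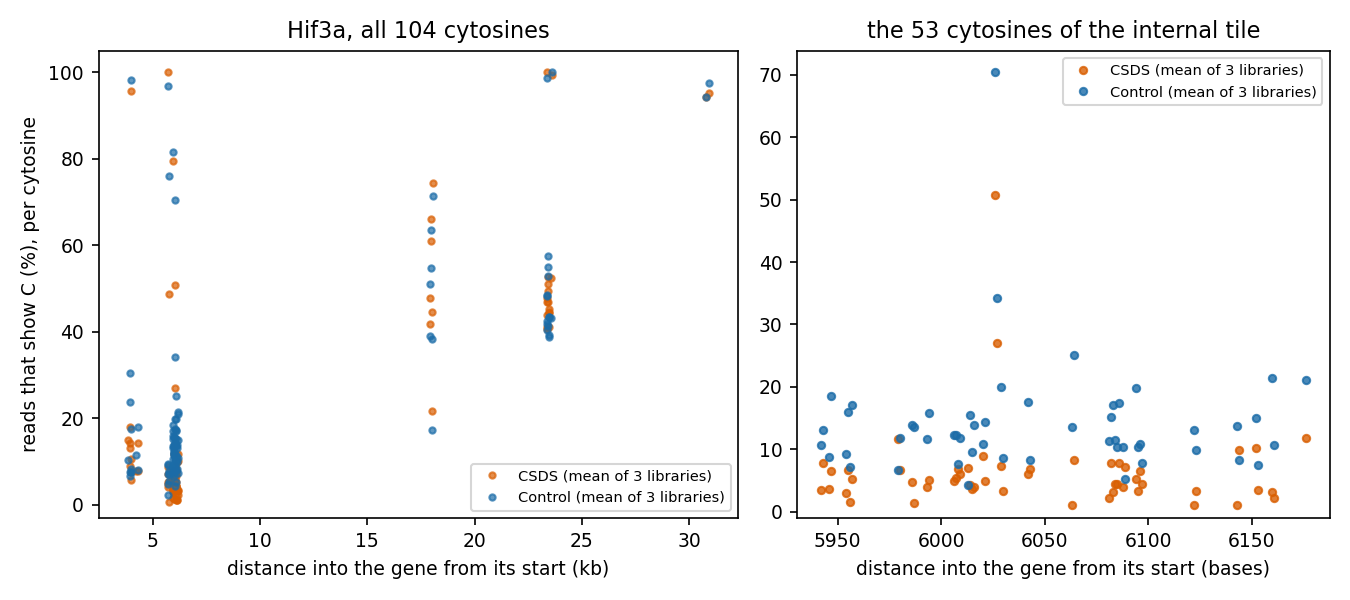
Percent of reads that show C at each Hif3a cytosine, as the mean of the 3 CSDS and of the 3 Control libraries, against distance into the gene (left, all 104 cytosines, in kb; right, the 53 of the tile at 17056001, in bases). In the tile 49 of the 53 CSDS means lie below the Control mean of the same cytosine. In the far part of the gene both groups lie at similar levels as deposited.

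Hif1a (chromosome 12, 73901324 to 73947554, plus strand) encodes the best-known alpha subunit, and all 153 of its cytosines lay within 1 kb of the start in the promoter table, 73907867, which is inside the annotated gene. This window was methylated to 13.4%, 9.49% and 9.76% in the CSDS libraries, against 13.8%, 14.7% and 13.5% in the Control libraries. CSDS replicate 1 was next to the lowest Control library, and CSDS replicates 2 and 3 were well below it. The means were 10.9 ± 2.18% in CSDS and 14.0 ± 0.587% in Control libraries (SD, n = 3 each), a difference of -3.12 points, and after the mitochondrial correction it was +0.17 points. Separation with CSDS lower was found in 34.7% of all start windows. The tile of Hif1a with the largest difference, at 73907501 with 6 cytosines, averaged 19.2 ± 1.04% in CSDS and 23.7 ± 1.13% in Control libraries, and its groups overlapped after the correction.

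Epas1 (chromosome 17, 86753864 to 86833410) encodes the alpha subunit HIF2A, known for its part in erythropoietin control and in blood vessels. It had a low end and a highly methylated body. Its lower-coordinate end, with 103 cytosines, was methylated to 12.4%, 9.71% and 9.79% in the CSDS libraries, against 12.9%, 17.4% and 13.9% in the Control libraries. All CSDS libraries were below all Control libraries here, with a difference of -4.10 points as deposited, and of -0.91 points after the mitochondrial correction, when the groups overlapped. Separation of this kind was found in 27.7% of all gene ends as deposited.

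The interior of Epas1, with 160 cytosines, was methylated to 83.9%, 81.5% and 82.0% in the CSDS libraries, against 85.1%, 85.8% and 85.7% in the Control libraries. The groups were apart, with 82.5 ± 1.24% in CSDS and 85.5 ± 0.406% in Control libraries (SD, n = 3 each). The difference was -3.08 points as deposited, -2.67 points after the mitochondrial correction and -2.65 points with the share at broadly expressed genes. The groups were apart each time. Both corrections change a highly methylated level little, so groups apart as deposited tend to stay apart. Its adjusted p over all interiors, by the moderated quasi-binomial test (limma), was 0.493. Over all interiors that test called 0, with 3989 at an unadjusted p under 0.05 and 0 called by limma on logit values.

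Of the 27 tiles of Epas1, 20 had a Control mean over 90%. In 10 of the 27 (37.0%) all CSDS libraries were below all Control libraries, against 15.7% of all tiles as deposited. In 7 (25.9%) the groups were still apart after the mitochondrial correction, against 7.67% of all tiles. All 7 had a Control mean over 90%, where the correction changes a difference little, so groups apart as deposited tend to stay apart. Their unadjusted p by the moderated quasi-binomial test (limma) ranged from 0.00391 to 0.410. The tile of largest difference, at chromosome 17, 86783501 to 86784000, was methylated to 95.2%, 85.7% and 80.4% in the CSDS libraries, against 98.4%, 100% and 96.3% in the Control libraries, a difference of -11.1 points. It rests on 3 cytosines and on 42 to 224 reads a library, and CSDS replicate 1 was at -3.01 points from the Control mean. Without CSDS replicate 1 the difference was -15.2 points and the tile was called, as were 2336 tiles (1.43%) over the whole table, and without CSDS replicate 3 it was -7.76 points. The tile at 86759001, with 9 cytosines, averaged 90.4 ± 2.23% in CSDS and 96.6 ± 2.36% in Control libraries. The one at 86825001 averaged 89.0 ± 3.85% in CSDS and 96.8 ± 0.446% in Control libraries. It rests on 3 cytosines and on 58 to 150 reads a library. In both of these tiles, the groups were apart before and after the correction.

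Arnt (chromosome 3, 95434367 to 95497240, plus strand) encodes the partner of the alpha subunits and was measured at 10 cytosines at its start. Their mean was 29.8%, 26.8% and 26.8% in the CSDS libraries, against 33.3%, 30.2% and 28.4% in the Control libraries. The groups overlapped, with a difference of -2.81 points as deposited, -0.18 points after the mitochondrial correction and -1.49 points without Control replicate 1. Arnt2 (chromosome 7, 84246274 to 84411741, minus strand), the partner known mainly from neural tissue, had 54 cytosines around its start at 84410038. They were methylated to 15.4%, 11.7% and 12.8% in the CSDS libraries, against 15.5%, 14.7% and 16.3% in the Control libraries. The groups overlapped as deposited with a difference of -2.17 points, and after the mitochondrial correction all CSDS libraries were above all Control libraries, by 1.10 points on average. Among all start windows 4.06% were apart in that direction after the correction. The interior of Arnt2, which includes this start, averaged 50.5 ± 1.91% in CSDS and 52.5 ± 0.516% in Control libraries with overlapping groups. The difference was -1.94 points, -6.51 points with reads summed over the cytosines, and -3.04 points without CSDS replicate 1. For the start window, summed reads gave -4.51 points, and leaving out CSDS replicate 2 gave -1.39 points.

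The tile of largest difference in Arnt2, at chromosome 7, 84337501 to 84338000, also lies in the annotated lncRNA Gm30873. It was methylated to 88.1%, 70.9% and 64.3% in the CSDS libraries, against 87.5%, 89.1% and 85.0% in the Control libraries. The difference of -12.8 points came from CSDS replicates 2 and 3, since CSDS replicate 1 was 0.86 points above the Control mean. The tile holds 4 cytosines with 55 to 168 reads a library. Without CSDS replicate 1 the difference was -19.6 points, and without CSDS replicate 3 it was -7.74 points.

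Egln1 (chromosome 8, 124908587 to 124949254, minus strand) encodes PHD2, the main hydroxylase of HIF1A in most cells, and had the most cytosines of the 9 genes, 340 of them within 1 kb of its start. That window was methylated to 9.80%, 6.35% and 6.58% in the CSDS libraries, against 11.3%, 10.6% and 11.4% in the Control libraries. The groups were apart as deposited, with 7.58 ± 1.93% in CSDS and 11.1 ± 0.434% in Control libraries (SD, n = 3 each). The difference was -3.51 points, and -0.14 points after the mitochondrial correction, when the groups overlapped. Its interior of 91 cytosines averaged 54.6 ± 1.02% in CSDS and 56.9 ± 0.855% in Control libraries, and the groups were apart only as deposited. Its tile of largest difference, at 124947001, averaged 56.7 ± 5.45% in CSDS and 60.8 ± 1.48% in Control libraries with overlapping groups.

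Egln2 (chromosome 7, 27158658 to 27166802, minus strand) encodes the hydroxylase PHD1. At the end with its first start, with 128 cytosines, it was methylated to 11.3%, 6.04% and 6.80% in the CSDS libraries, against 12.2%, 13.3% and 11.8% in the Control libraries. The difference of -4.39 points was the largest among the start windows and ends of the 9 genes as deposited, and it was -1.11 points with overlapping groups after the mitochondrial correction. The tile over this start, at 27166501 with 78 cytosines, averaged 8.25 ± 2.14% in CSDS and 13.4 ± 0.694% in Control libraries. Its groups were apart as deposited (-5.13 points) and after the mitochondrial correction (-1.94 points), and overlapped with the share at broadly expressed genes (-1.32 points). The second start, at 27165728, whose window shares cytosines with the first, averaged 14.7 ± 2.62% in CSDS and 18.7 ± 0.268% in Control libraries. The tile of largest difference, at 27165501 with 6 cytosines, averaged 60.7 ± 3.35% in CSDS and 66.8 ± 4.95% in Control libraries, and its groups overlapped.

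The 16 cytosines of the Egln2 interior were methylated to 69.1%, 70.1% and 70.9% in the CSDS libraries, against 75.5%, 74.5% and 73.8% in the Control libraries. The groups did not overlap, and CSDS replicate 1 was the lowest of all. The means were 70.1 ± 0.894% in CSDS and 74.6 ± 0.842% in Control libraries (SD, n = 3 each). The difference was -4.56 points as deposited and -3.84 points after the mitochondrial correction, with the groups still apart. Each library had 671 to 821 reads here, and the adjusted p over all interiors, by the moderated quasi-binomial test (limma), was 0.189.

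Egln3 (chromosome 12, 54178981 to 54203874, minus strand) encodes the hydroxylase PHD3. Its start window of 84 cytosines was methylated to 12.6%, 7.29% and 8.93% in the CSDS libraries, against 15.04%, 13.2% and 13.7% in the Control libraries. The groups were apart as deposited by -4.36 points and overlapped after the mitochondrial correction, at -1.15 points. The tile of largest difference, at 54203001 with 26 cytosines, averaged 13.3 ± 3.93% in CSDS and 18.1 ± 1.06% in Control libraries, with overlapping groups. The 17 cytosines of its interior averaged 78.8 ± 0.318% in CSDS and 78.6 ± 2.50% in Control libraries, the only one of the 7 measured interiors of these genes with a higher CSDS mean, by 0.243 points. Without Control replicate 2 this difference was -0.87 points, and with reads summed over the cytosines it was -1.41 points.

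Vhl (chromosome 6, 113623994 to 113631634, plus strand) encodes the substrate-binding part of the ubiquitin ligase and was measured at 119 cytosines around its start. They were methylated to 14.5%, 7.79% and 7.84% in the CSDS libraries, against 16.3%, 11.98% and 12.6% in the Control libraries. CSDS replicate 1 was above Control replicates 2 and 3, so the groups overlapped, and the means of 10.1 ± 3.88% in CSDS and 13.6 ± 2.31% in Control libraries had wide errors (SD, n = 3 each). The difference was -3.55 points as deposited and -0.24 points after the mitochondrial correction. It was -5.79 points without CSDS replicate 1 and -2.23 points without Control replicate 1. The tile at 113624001, with 108 of these cytosines, averaged 10.01 ± 3.73% in CSDS and 13.8 ± 2.54% in Control libraries.

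**Figure D2:**
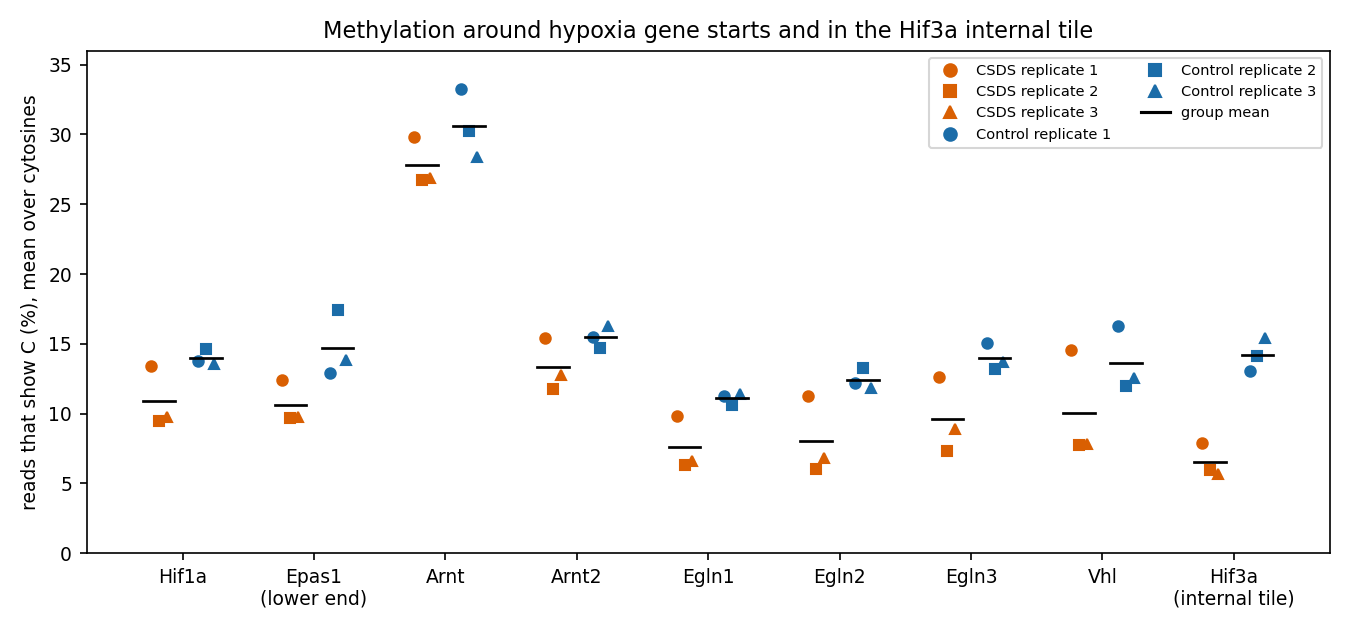
Percent of reads that show C in each CSDS and Control library around the starts of the hypoxia genes (for Epas1 at its lower-coordinate end, for Hif3a in the tile inside the gene), with 1 symbol per library and a line at each group mean. As deposited, Egln1, Egln2, Egln3, Hif1a, Epas1 and Hif3a had all CSDS libraries below all Control libraries, and the groups of Arnt, Arnt2 and Vhl overlapped. Such separation was found in 34.7% of all start windows, 27.7% of all gene ends and 15.7% of all tiles. After the mitochondrial correction it remained only in the Hif3a tile, which was picked as the tile of largest difference in its gene.

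Read together, all 8 start windows of the genes with one had a lower mean in CSDS, as 94.3% of all start windows had, and in 5 (62.5%) the groups were apart, against 34.7% of all start windows. The median difference was -3.53 points, against -3.34 points over all start windows, and after the mitochondrial correction it was -0.21 points, against -0.28 points. After that correction no start window of these genes had all CSDS libraries lower, as 7.86% of all start windows did. None was called by the moderated quasi-binomial test (limma) over all start windows (0% of 17678 called), with adjusted p-values from 0.121 to 0.433. Over all start windows 6803 had an unadjusted p under 0.05, and limma on logit values called 67. All 6 gene ends were lower, as 87.2% of all gene ends were, with 4 apart (66.7%, against 27.7% of all gene ends) and a median of -3.82 points, against -3.04 points over all gene ends, and none apart with CSDS lower after the correction, as 8.08% of all gene ends were. None of the 6 had all CSDS libraries above, as 0.824% of all gene ends had as deposited and 3.88% after the correction. That test called 0 of 29729 gene ends (0%), with 8724 at an unadjusted p under 0.05 and 0 called by limma. Of the 7 interiors 6 were lower, as 80.4% of all interiors were, and 5 were apart (71.4%, against 21.3% of all). Those of Hif3a, Epas1 and Egln2 were still apart after the correction, as 9.78% of all interiors were. None had all CSDS libraries above, as 1.11% of all interiors had as deposited and 2.6% after the correction. These tallies are not independent of each other. Apart from that of Epas1, the gene ends hold the same cytosines as start windows of their genes, and so does the Hif1a interior. The windows of Egln2 share cytosines, and the Arnt2 interior includes its start.

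**Figure D3:**
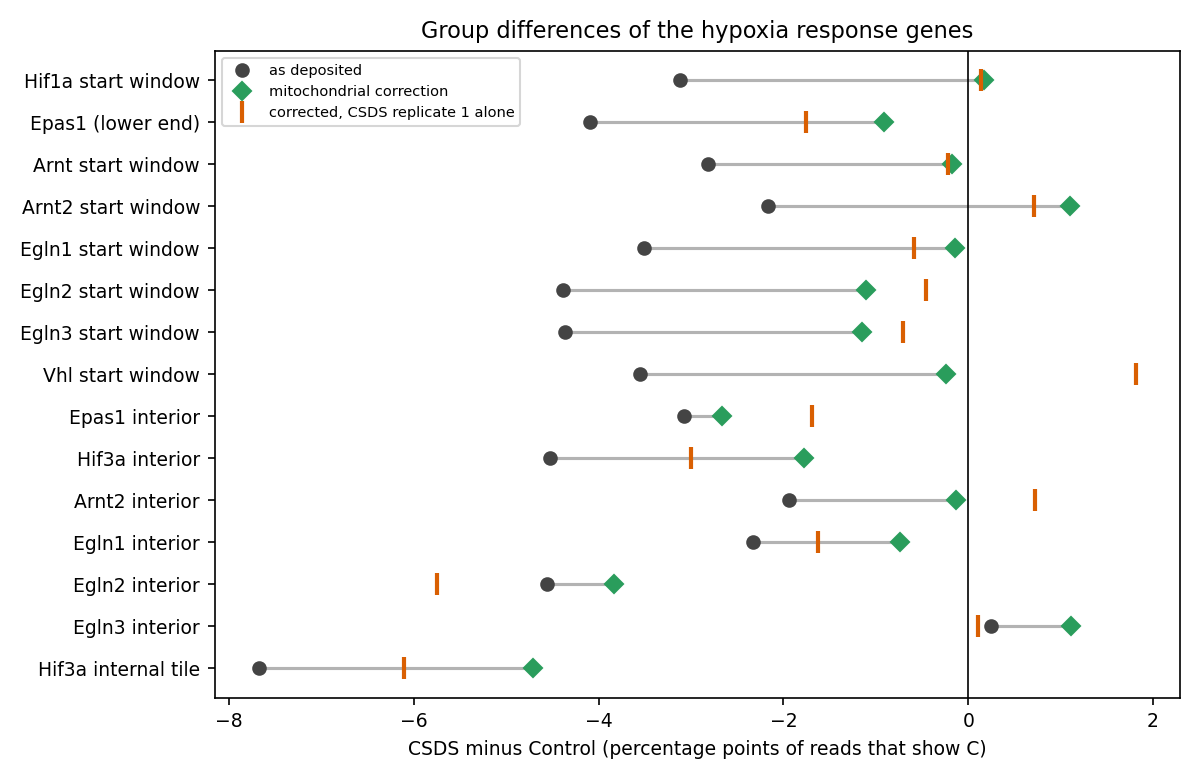
Difference CSDS minus Control, in percentage points, for start windows, the Epas1 end, interiors and the Hif3a tile, as deposited (circles) and after the mitochondrial correction (diamonds), with bars for CSDS replicate 1 alone after it. After the correction the start windows and the Epas1 end lie between -1.15 and +1.10 points. The interiors of Epas1 (-2.67 points) and Egln2 (-3.84 points) move little. The correction changes highly methylated regions less than regions of low level.

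Of the 70 tiles of the 9 genes, 59 (84.3%) had a lower mean in CSDS, against 73.7% of all tiles, and 18 (25.7%) had all CSDS libraries below all Control libraries, against 15.7% of all tiles. None had all CSDS libraries above, as 1.81% of all tiles had as deposited and 3.71% after the mitochondrial correction. The median was -2.58 points, against -1.70 points over all tiles, and -0.74 points, against -0.47 points, after the mitochondrial correction. After it, 9 tiles were apart (12.9%, against 7.67% of all tiles), and 7 of these 9 belong to Epas1, 1 to Hif3a and 1 to Egln2. The Egln2 tile overlapped with the share at broadly expressed genes. The 7 of Epas1 have a high Control level, where the correction changes a difference little. None of the 70 was called by the moderated quasi-binomial test (limma), and 20 (28.6%) had an unadjusted p under 0.05, against 15.6% of all tiles. Before any correction 36 of the 70 had a Control mean over 80% and 20 had one under 20%.

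**Figure D4:**
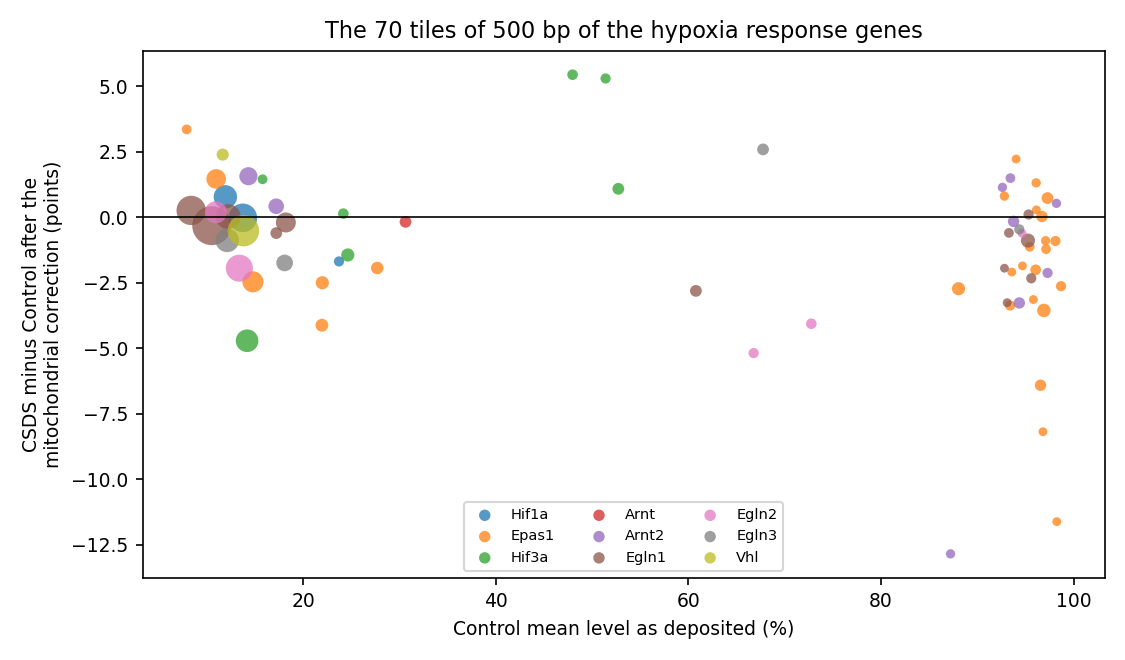
Difference CSDS minus Control of the 70 tiles after the mitochondrial correction, in percentage points, against the mean Control level in percent as deposited, with 1 point per tile, coloured by gene and sized by its number of cytosines. The Hif3a tile with 53 cytosines lies at -4.71 points, and the Epas1 and Arnt2 tiles past -10 points have 3 and 4 cytosines at a high Control level.

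Few core motifs of the promoters could be read. In the Egln2 promoter shown above, both strands of the ACGTG that begins 48 bases before the start and of the CACGC that begins 34 bases before it were listed in all libraries, with 66 to 156 reads. On the minus strand the cytosine of the ACGTG was methylated to 6.25%, 0% and 2.53% in the CSDS libraries, against 10.96%, 12.99% and 5.22% in the Control libraries. On the plus strand it was at 1.69%, 2.78% and 2.17% in the CSDS libraries, against 5.56%, 3.64% and 6.41% in the Control libraries. All CSDS values of the plus strand were below all Control values, while on the minus strand CSDS replicate 1 was above Control replicate 3. Of these values only those of Control replicates 1 and 2 on the minus strand exceeded the mitochondrial share of C of their own library. The cytosine of the CACGC was methylated on the minus strand to 10.2%, 0% and 5% in the CSDS libraries, against 10.7%, 20.5% and 7.02% in the Control libraries. On the plus strand it was at 6.78%, 2.70% and 4.35% in the CSDS libraries, against 8.11%, 3.74% and 11.5% in the Control libraries. The groups overlapped on both strands, and the values of CSDS replicates 1 and 3 and Control replicates 1 and 2 on the minus strand and of Control replicate 3 on the plus strand exceeded the mitochondrial share of their own library. In the Egln1 promoter 3 motif cytosines were listed, with 22 to 80 reads, at 0% to 8.70% in the CSDS libraries and 0% to 36.4% in the Control libraries. The value of 36.4% was that of Control replicate 1 at the GCGTG that begins 126 bases before the start, where both other Control libraries had 0% and 4.65% on that strand.

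The pathway around these genes was read at the gene end with more cytosines, of which 30.6% over all genes had all CSDS libraries below all Control libraries. Regulators of HIF, such as factors that acetylate, hydroxylate or chaperone the alpha subunits, were lower in CSDS at all 16 genes measured, as 90.2% of all genes were, with 5 apart (31.3%) and a median of -3.20 points, against -3.19 points over all genes. After the mitochondrial correction their median was +0.05 points, 8 were lower and none was apart with CSDS lower, as 7.94% of all gene ends of this kind were. Hsp90ab1, a chaperone of HIF1A, was then apart with CSDS higher, by 1.37 points, and was so also with the share at broadly expressed genes. Among all gene ends 3.88% were apart with CSDS higher after the mitochondrial correction. Os9, an endoplasmic reticulum lectin reported to bind HIF1A, averaged 20.1 ± 3.73% in CSDS and 25.5 ± 1.31% in Control libraries with overlapping groups. Limd1, an adaptor between EGLN and VHL proteins, differed by -4.52 points and Cul2, the scaffold of the VHL ligase, by -4.15 points, both with overlapping groups. Hsp90aa1, a chaperone of HIF1A, averaged 8.03 ± 1.40% in CSDS and 12.5 ± 0.828% in Control libraries, and its groups were apart as deposited only.

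Of the 43 HIF target genes 39 were measured and 36 were lower in CSDS, as 90.2% of all genes were. In 8 (20.5%) the groups were apart, against 30.6% of all genes. Their median was -3.27 points as deposited and -0.20 points after the mitochondrial correction. After it 2 (5.13%) were apart with CSDS lower, against 7.94% of all genes. The largest differences were at Tpi1 (-5.80 points) and Pfkp (-5.24 points), enzymes of glycolysis, at Slc2a3 (-5.58 points), a glucose transporter, and at Slc16a3 (-5.24 points), a lactate exporter. The Pfkp end has 6 cytosines, and its difference was -0.78 points without Control replicate 2. The difference of Tpi1 was -3.73 points without Control replicate 2 and -9.03 points without Control replicate 3. Among these 4 the groups of Slc2a3 and Slc16a3 were apart, and only Slc2a3, at 8.31 ± 1.92% in CSDS and 13.9 ± 0.807% in Control libraries, was also apart after the mitochondrial correction, but not with the share at broadly expressed genes. The 3 with a higher CSDS mean were Ldha, Car9 and Hk1, all read at a highly methylated end and all with overlapping groups. The sign for Car9 and Hk1 turned when 1 library was left out. Ldha, a lactate dehydrogenase subunit, averaged 92.7 ± 4.43% in CSDS and 88.8 ± 3.21% in Control libraries, a difference of +3.91 points that was +6.39 points without CSDS replicate 1, +2.13 points without CSDS replicate 2 and +2.06 points without Control replicate 2. The other bHLH-PAS genes are of the transcription factor family to which the HIF subunits belong. All 10 measured were lower in CSDS, as 90.2% of all genes were. In 6 (60.0%) the groups were apart, against 30.6% of all genes. Their median was -3.42 points as deposited and -0.30 points after the mitochondrial correction. After it 2 (20%) were apart with CSDS lower, against 7.94% of all genes. Sim1, a developmental regulator of the hypothalamus, averaged 12.1 ± 1.85% in CSDS and 17.04 ± 0.950% in Control libraries. Npas4, an activity-induced neuronal factor, averaged 40.5 ± 0.893% in CSDS and 45.2 ± 1.19% in Control libraries, and both were also apart after the mitochondrial correction but overlapped with the share at broadly expressed genes. Npas1, a repressor in neurons, averaged 9.58 ± 3.19% in CSDS and 10.5 ± 0.511% in Control libraries with overlapping groups. After the mitochondrial correction all its CSDS libraries were above all Control libraries, by 2.70 points on average, as they were with the share at broadly expressed genes. After the mitochondrial correction 3.88% of all gene ends were apart in that direction. Arntl2, a clock factor, differed by -4.12 points with overlapping groups, and by -0.94 points without Control replicate 2, and Ahr, the dioxin receptor, by -3.63 points with groups apart as deposited only. No gene of the 3 lists was called by the moderated quasi-binomial test (limma) over all gene ends, with adjusted p-values from 0.157 upward.

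**Figure D5:**
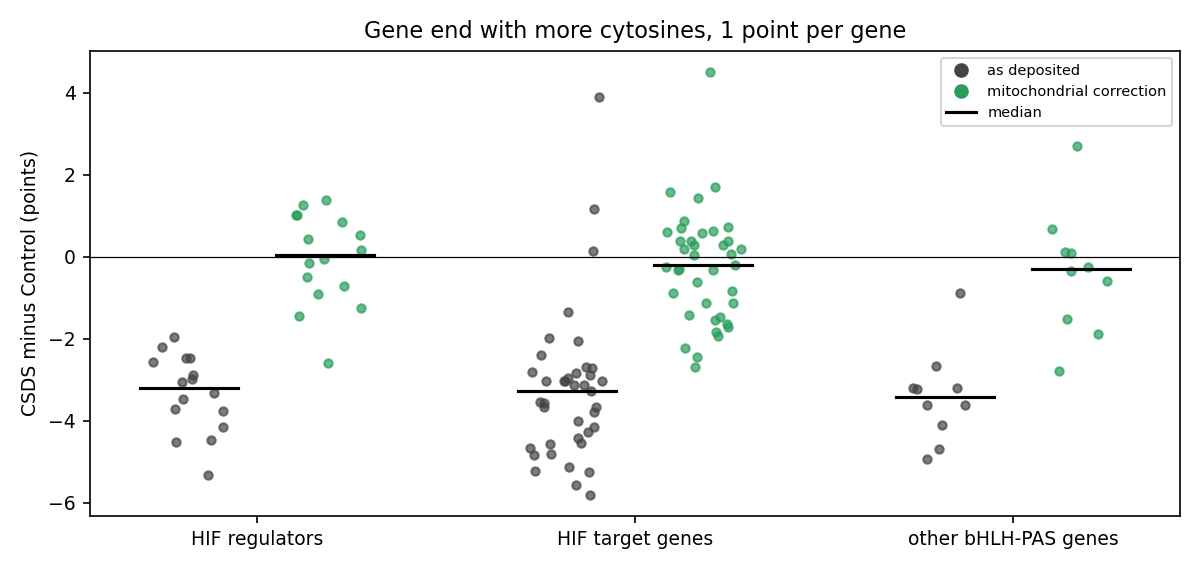
Difference CSDS minus Control, in percentage points, at the gene end with more cytosines of HIF regulators, HIF target genes and other bHLH-PAS genes, with 1 point per gene and a line at each median, as deposited (grey) and after the mitochondrial correction (green). The deposited medians of -3.20, -3.27 and -3.42 points lie close to the -3.19 points of all genes.

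Among 13877 gene interiors with 10 or more cytosines, those closest to the Hif3a interior by root mean square difference over the 6 libraries were Pnkd (0.664 points), Gcfc2 (0.712 points), Lgi3 (0.715 points), Gmps (0.800 points) and Phf13 (0.835 points). Pnkd averaged 20.4 ± 1.84% in CSDS and 24.1 ± 0.1996% in Control libraries, a difference of -3.67 points. In the others the difference was between -3.59 and -3.31 points as deposited. The choice by likeness over these libraries fixes that the deposited differences are close to that of Hif3a. The correction is a fixed linear step for each library, so the choice largely fixes the corrected values too. Any contrast after it rests on the small gaps between these interiors as deposited. After the mitochondrial correction the groups of all 5 overlapped, with differences from -0.84 to -0.45 points. Those of Hif3a were then apart at -1.78 points, as 9.78% of all interiors were with CSDS lower. With the share at broadly expressed genes the groups of Hif3a overlapped as well, at -1.24 points.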

How the data were processed

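Genomic DNA of male germ cells was sequenced by RRBS in 3 CSDS and 3 Control libraries. Per the submitters' processing notes, Trim Galore 0.5.0 and Bismark 0.20.0 were used with GRCm38. The deposited tables give, per the file headers, a coverage count of reads for each CpG cytosine and the percent of them showing C or T. Percent times coverage was whole at every position to within 1e-06, so methylated counts were taken from it. The lowest coverage listed is 10. Handling of duplicates and the conversion rate are not given in the sources used here.

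Of 3348459 cytosines listed in at least 1 library (2420308 to 3156788 each, median coverage 44 to 50), 2210988 were listed in all 6. The 3424 with coverage in a library's top 0.1% were left out, and 2207564 remained. Strands were kept apart. Gene ends (1 kb either side), interiors, start windows (1 kb either side of each start in the RefSeq promoter table) and 500-base tiles held at least 3 cytosines. The annotation, GRCm38.p6, gives no exons here, so exon, intron and UTR were not separated. Levels are means over cytosines. Counts of each feature entered a logistic regression on group, with the quasi-binomial dispersion moderated by limma 3.58.1 (R 4.3.3) and held at 1 or above, an F test and Benjamini-Hochberg adjustment over the whole family. A call needed an adjusted p under 0.05 and a difference of at least 10 points. With 3 against 3, an exact two-sided permutation test cannot go below 0.1, so none was used for single values. Corrected levels divide the unmethylated share by 1 minus the share of C at mitochondrial DNA (median of 27 cytosines) or at the gene ends of 21 of 23 broadly expressed genes, and can fall below 0. The procedure was run on simulated counts of gene ends with added increases larger than any difference of the gene ends described here. That run does not show how it performs for smaller differences, for decreases or for interiors and tiles.

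The 9 genes, the gene lists and the broadly expressed genes were chosen with earlier results of these data known. Pgk1 and Gpi1 are in both the list of HIF target genes and that of broadly expressed genes. The text names every one of the 9 with its ends, interior and tile of largest difference, tiles of 10 points with groups apart, and up to 4 genes of largest absolute difference per list. Other tiles of Epas1, the Egln2 tile over its start, and Ldha, Car9, Hk1, Hsp90ab1 and Npas1 were named after their values were seen. Likeness to Hif3a was to be measured at gene ends, but neither end of Hif3a has 3 cytosines, so interiors were used, a choice made after seeing the data, as were the start windows and the splits of the Hif3a tile. Alternatives covered coverage limits, cytosine minimum, strands, weighting, both corrections, limma on logit values with a pseudocount of 1, a replicate block, tile offset, window width, the call rule and leaving out each library. Analyses used Python 3.11.15.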

Additional observations from a re-analysis of the deposited data

How the results depend on the processing

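No feature of the 9 genes was called with all libraries. Leaving out 1 library at a time gave 0 to 2336 called tiles, 0 to 495 gene ends, 0 to 56 interiors and 0 to 249 start windows over the whole table, and the highest count of each came without CSDS replicate 1, almost all of it lower in CSDS. Limma on logit values called 67 start windows. The other alternatives called 0 in each family. The difference of the Hif3a tile was -4.71 points after the mitochondrial correction, -4.22 points with the share at broadly expressed genes, -6.31 points for CSDS replicate 1 alone and -6.11 points for it after the mitochondrial correction. It was -6.64 points at a coverage minimum of 20, -7.05 points with strands summed, -6.96 points with tiles shifted and -8.37 to -7.08 points with 1 library left out. For the 9 genes 40 features were followed, 21 ends, interiors and start windows (some of them identical) and 19 tiles chosen for groups apart or a difference of 10 points. The mitochondrial correction moved 27 by more than 1 SD and turned the sign of 5, and the correction by broadly expressed genes moved 28 and turned 14. Reads summed over cytosines turned the sign of the Egln3 interior (-1.41 points) and gave -6.51 points for the Arnt2 interior. Deviations of same-numbered libraries had correlations of -0.0414, -0.0485 and 0.00288. Such values cannot show whether the numbers stand for a shared batch or pairing, which no label states. With a replicate block 0 features were called in each family. Some tiles rest on 3 or 4 cytosines and on as few as 42 reads in a library.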

Other observations

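Within the Hif3a tile 1 CpG, at 6026 and 6027 bases into the gene, had the highest mean level of the tile on each strand in both groups. On the minus strand of Hif3a at base 17056401 its level was 51.7%, 43.4% and 57.1% in the CSDS libraries, against 60.4%, 78.6% and 72.2% in the Control libraries, with 28 to 53 reads. On the plus strand at base 17056400 it was 19.3%, 32.0% and 29.9% in the CSDS libraries, against 27.0%, 37.0% and 38.5% in the Control libraries, with 96 to 135 reads. On the minus strand the groups were apart, and on the plus strand CSDS replicates 2 and 3 were above Control replicate 1. The minus strand had the higher level in every library and fewer reads, and why the strands differ was not tested. This CpG was singled out after its values were seen.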
